A study of Bos taurus and Felis catus with 14 samples.

Results

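MicroRNA families carry running numbers, and those from 1000 upwards were named late. The loci described here are the predicted precursors of cow and cat whose name holds such a number. They make up 121 of the 1305 precursors in the deposited sets, 96 of 810 in the cow and 25 of 495 in the cat. The ruminant families mir-2284 and mir-2285, and mir-2957 and mir-3120, were left out, as were names that begin with the prefix for an antisense locus. The imprinted microRNA region on bovine chromosome 21 and on the feline sequence NC_018728.2 was also left out. The choice used names and positions alone. The lowest number among the members was 1224 in either species, and the highest number below the limit was 935, so no locus lay close to the limit.

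Small RNA was sequenced in 10 libraries from 3 steers and in 4 libraries from 3 cats (*Bos taurus* and *Felis catus*). Steer 1 gave 8 of the 10 tissues, which were the iris, retina and optic nerve of the eye, oral papillae and dental pulp of the mouth, submandibular lymph node, bone marrow and penis. Another gave brain stem and the remaining steer gave corium of the foot. The cats gave 2 skin and 2 muscle libraries. By the study's methods the steers were Angus, sampled at slaughter, and the cats were neutered male domestic short hair animals of old age whose skin and muscle were normal. No treatment or genetic change is given for any animal. The authors ran miRWoods, a random forest classifier of small RNA loci, over the pooled libraries of each species, which leaves 1 set of calls per species and no replicate. Each set lists the span, strand and name of every precursor and of its mature products, with no read numbers. The study's own table of read counts was not used here, so members were not tied to a tissue, an animal or a level of expression. Positions are those of the deposited sets, counted from 1. Their genome build is not given in these sources.

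A microRNA gene is transcribed into a long RNA that folds back on itself. Drosha and its partner DGCR8 cut the hairpin out of the primary transcript in the nucleus, and Dicer then removes the loop and leaves a duplex of a 5p and a 3p strand. The strand that is loaded into an Argonaute protein pairs with target messages mainly through its seed, bases 2 to 8. Families that arose recently in evolution are known to be expressed at lower levels, on the whole, than ancient ones such as let-7, and many lie inside the introns of other genes. A family number records the order of naming and does not date a family, and the files hold no measure of age, so the loci are called late-numbered here.

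Families found in both species are the members that were called in more than 1 set, and their seeds are shown first. There were 14 of them: mir-1224, mir-1249, mir-1271, mir-1296, mir-1306, mir-1307, mir-1343, mir-1388, mir-1842, mir-2387, mir-3660, mir-6529, mir-6715 and mir-9851. For 6 of these families the study's table of human products, in cell lines, gives 11 mature sequences. They are printed 5′ to 3′ as DNA letters, with the seed in capitals. The bovine and feline bases were not analysed here and may differ.
hsa-miR-1224-3p: cCCCACCTcctctctcctcag
hsa-miR-1249-5p: aGGAGGGAggagatgggccaagtt
hsa-miR-1249-3p: aCGCCCTTcccccccttcttca
hsa-miR-1296-5p: tTAGGGCCctggctccatctcc
hsa-miR-1296-3p: aGTGGGGCttcgaccctaacc
hsa-miR-1306-5p: cCACCTCCcctgcaaacgtcca
hsa-miR-1306-3p: aCGTTGGCtctggtggtgatg
hsa-miR-1307-5p: tCGACCGGacctcgaccggct
hsa-miR-1307-3p: aCTCGGCGtggcgtcggtcgtgg
hsa-miR-1343-5p: tGGGGAGCggcccccgggtgg
hsa-miR-1343-3p: cTCCTGGGgcccgcactctcgc
The 11 products carried 11 different seeds, so no 2 of them would be grouped as 1 seed family.

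The late-numbered loci fell into 90 families in the cow and 24 in the cat. They were 26.6% of the 361 numbered bovine loci that the same exclusions kept (interval 22.1 to 31.5%) and 9.43% of the 265 feline ones (interval 6.20 to 13.6%). Both shares are a description, since membership is set by the number in the name. The tissues, the number of libraries and the microRNAs annotated beforehand also differed between the species and cannot be told apart here. The intervals are 95% exact binomial ones (Clopper-Pearson) and take in counting error alone, and all tests take loci of 1 list as their units. Some of those loci are neighbours or copies of each other, so a p-value describes the list and not the spread between animals. All p-values given are adjusted over the 11 tests made.

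Most late-numbered families were seen in 1 species alone. The 14 shared families were 15.6% of the 90 bovine families and 58.3% of the 24 feline ones. Families numbered under 1000 and let-7 are called older families from here on, which refers to their naming and not to their age in evolution. Among these, 147 were shared, which is 86.5% of 170 bovine and 93.6% of 157 feline families. These shares are given as a description, since the tissues sampled differed between the species.

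Where a late-numbered family was called in both species, the 2 precursors often had equal or similar lengths and product positions. The counts were not made for the shared older families, so whether this is particular to late-numbered families was not tested. Among the 14 families, 13 had 1 locus in each set, and 6 of these had precursors of equal length, among them mir-1224 with 89 nt in cow and cat and mir-1343 with 101 nt. Length differed by at most 5 nt in 10 of the 13. The same arms gave products in 11. In mir-1249, mir-1343, mir-1842, mir-3660 and mir-6715, every product also began and ended at the same position of the hairpin. For mir-1249 these were positions 6 to 30 and 43 to 64 of 65 nt, counted from the 5′ end, and its 5p product of 25 nt was the longest product of any bovine member. For mir-1343 the products took positions 24 to 45 and 61 to 82, well inside a long hairpin.

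**Figure D1:**
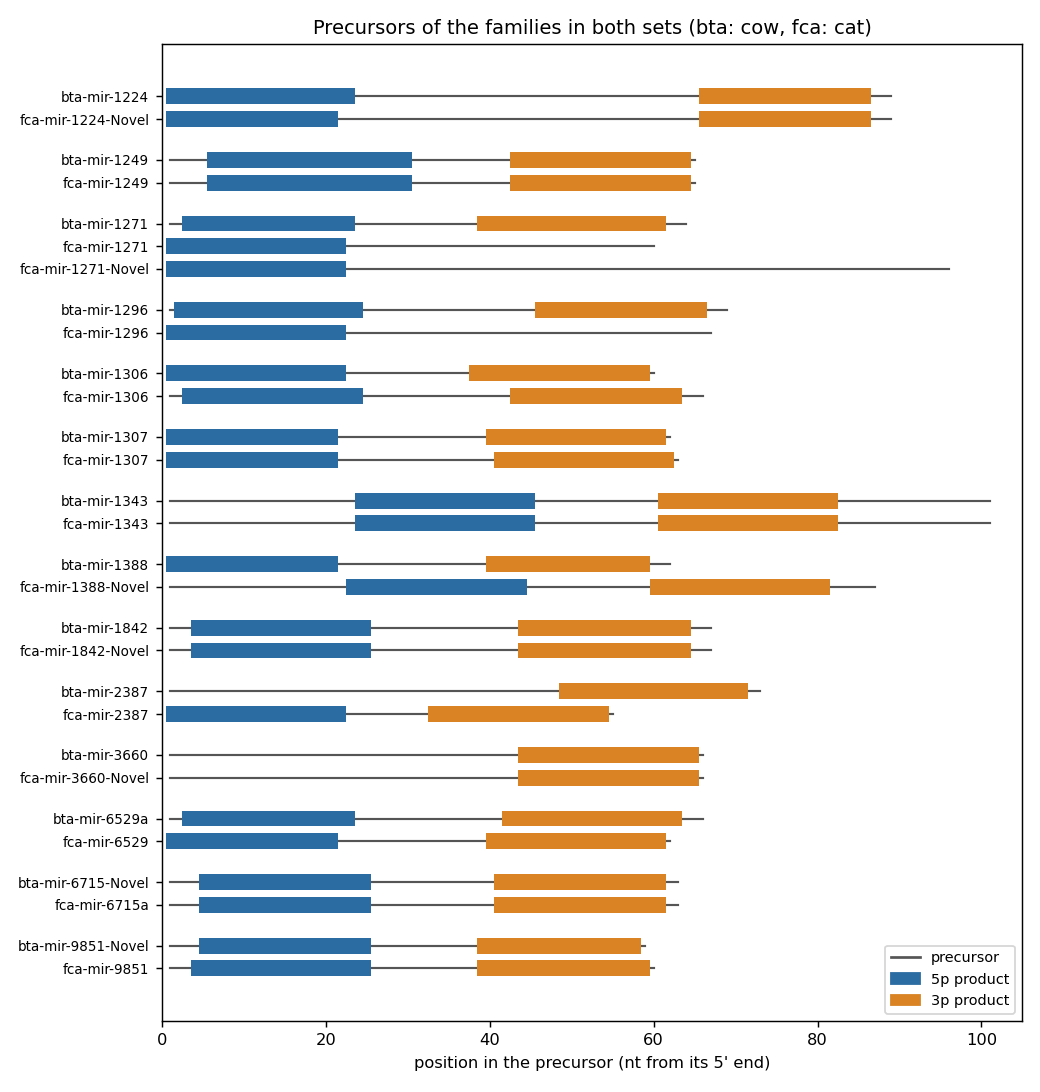
Precursors of the 14 late-numbered families called in both species, drawn to scale in nt from the 5′ end, with bta for cow and fca for cat. Lines are precursors, blue boxes are 5p products and orange boxes are 3p products. Boxes line up exactly in mir-1249, mir-1343, mir-1842, mir-3660 and mir-6715, while mir-1388 and mir-2387 have spans of different length.

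Some shared families were called differently. The mir-1388 precursor was 62 nt long in the cow and 87 nt in the cat, where 22 nt preceded the 5p product. The mir-2387 precursor was 73 nt with a 3p product alone in the cow and 55 nt with both products in the cat. Products from both arms of mir-1296 were listed in the cow, and a 5p product alone in the cat. Family mir-1271 had 1 bovine locus of 64 nt with both products, and 2 feline loci of 60 and 96 nt, each of which had only its 5p product, of 22 nt. The feline loci lay on different sequences, and the longer was named as a further member.

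The nearest shared families mostly matched as well. For each locus, the nearest locus of any family found in both sets was looked up on the same sequence. In 12 of the 13 families with 1 locus in each set, that nearest family was the same in cow and cat. The exception was mir-1296, which lay nearest to mir-326 in the cow and to mir-107 in the cat. Among the 12, mir-6715 and mir-9851 were each other's nearest, so 1 adjacency counts for both. Family mir-1271 was outside this count and did not match. It lay nearest to mir-874 in the cow, and its feline loci nearest to mir-218 and mir-205. The same count was not made for older families. Family mir-1306 lay 20833 nt from mir-185 in the cow (chr17:74987969-74988028, plus strand) and 38878 nt from it in the cat (NC_018734.2:27665512-27665577, minus strand). Family mir-1249 lay 771044 nt from a let-7a locus in the cow and 792675 nt in the cat. The nearest family was mir-146 for mir-1307, mir-133 for mir-1388, mir-9 for mir-3660, mir-129 for mir-1343, mir-193 for mir-1842, mir-106 for mir-2387 and mir-28 for mir-1224 and mir-6529.

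Some late-numbered families also had matching places relative to each other, and others did not. On bovine chromosome 26, mir-1307 (minus strand), mir-6715 (plus) and mir-9851 (minus) followed one another at gaps of 8878703 and 4440388 nt. On the feline sequence NC_018733.2 the same order and strands recurred at gaps of 7843859 and 4079775 nt. Families mir-1224 and mir-6529, both on the minus strand, lay 18093439 nt apart on bovine chromosome 1 and 17004597 nt apart on NC_018731.2. Families mir-1842 and mir-2387 lay 31694828 nt apart on chromosome 25, both minus, and 28531818 nt apart on NC_018738.2, both plus. Against this, mir-1271 and mir-3660 lay 52721206 nt apart on opposite strands of bovine chromosome 7, while on NC_018723.2 the plain-named mir-1271 locus and mir-3660 lay 21636328 nt apart on the same strand. Family mir-1296 lay on NC_018733.2 with mir-1307 in the cat, but on chromosome 28 and not 26 in the cow. Loci that the authors named by homology to a family are called further members here, whether or not the set held another locus of that family. Of these, mir-6715 and mir-9851 in the cow had a counterpart with a plain name in the other species and the same nearest shared family there. The same held for mir-1224, mir-1388, mir-1842 and mir-3660 in the cat.

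**Figure D2:**
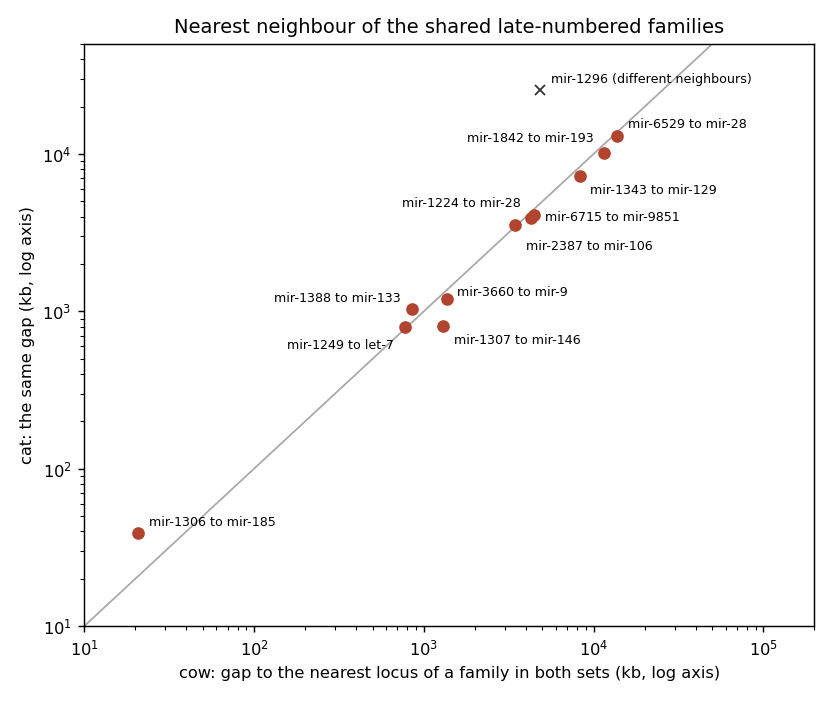
Gap from each shared late-numbered family to the nearest locus of a family found in both sets, cow on the x axis and cat on the y axis, in kb on log axes. Families with 1 locus in each set are shown, mir-6715 and mir-9851 are each other's neighbour and share a point, and the line marks equal gaps. The filled points have the same neighbour in both species and run from 20833 nt in the cow for mir-1306 to 13797106 nt for mir-6529, and mir-1296, marked with a cross, has different neighbours.

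The 10 late-numbered families of the cat that had no bovine counterpart were mir-1291, mir-1839, mir-1956, mir-1983, mir-2114, mir-3548, mir-3661, mir-6842, mir-8986 and mir-9182. All but fca-mir-3548 bore names given by homology, of the kind called further members here. Of the host-gene and snoRNA-linked families mir-1248, mir-1291, mir-1306, mir-1839, mir-3651 and mir-3653, the cow set held mir-1306 alone and the cat set held mir-1291, mir-1306 and mir-1839. The feline mir-1291 locus had the second shortest feline hairpin among members, 57 nt, and mir-1839 had 66 nt with both products.

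Late-numbered bovine hairpins gave products from both arms less often than older ones. A 5p and a 3p product derived from 73 of 96 late-numbered loci (76.0%, interval 66.3 to 84.2%) and from 251 of 265 older loci (94.7%, interval 91.3 to 97.1%), a difference of -18.7 percentage points (two-sided Fisher's exact test, adjusted p = 5.62e-06). In the cat the shares were 18 of 25 (72%, interval 50.6 to 87.9%) and 198 of 240 (82.5%, interval 77.1 to 87.1%), and the difference did not pass the exact test (adjusted p = 0.378). Late-numbered single-arm loci of the cow gave a 3p product in 15 cases, 5 of them of mir-6526, and a 5p product in 8. The older single-arm loci of the cow gave a 3p product in 7 cases and a 5p product in 7. In the cat 4 late-numbered loci gave a 5p product alone and 3 a 3p product alone. Among older feline loci these counts were 17 and 25. The split between arms was not tested.

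The single-arm calls are given by number band as a description, with no test between bands. All 14 bovine loci numbered from 1000 to under 2000 had both products: mir-1224, mir-1247, mir-1249, mir-1264, mir-1271, mir-1277, mir-1296, mir-1298, mir-1306, mir-1307, mir-1343, mir-1388, mir-1468 and mir-1842. In the band from 2000 to under 3000, 29 of 41 had both, among them mir-2320 with 63 nt. A 3p product alone came from mir-2113, mir-2319a, mir-2339, mir-2350, mir-2376, mir-2387, mir-2403, mir-2474 and mir-2478, and a 5p product alone from mir-2316, mir-2446 and mir-2465. In the band from 3000 to under 6000, mir-3660 gave 3p alone and the other 6 loci, mir-3059, mir-3064, mir-3106, mir-3431, mir-3432a-2 and mir-3613a, gave both. From 6000 upwards, 24 of 34 gave both, among them mir-7864 with 63 nt. A 5p product alone came from mir-6521, mir-6523a, mir-8550 and both mir-7863 loci, and the 5 loci with 3p alone were all of mir-6526. In the cat both products came from 10 of 14 loci numbered from 1000 to under 2000, 2 of 2 in the next band, 0 of 3 from 3000 to under 6000 and 6 of 6 above that. The feline single-arm loci were both of mir-1271 and those of mir-1296, mir-1983, mir-3548, mir-3660 and mir-3661.

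Loci named by homology as further members of a family were more frequent among the late-numbered bovine loci. They were 12 of 96 (12.5%, interval 6.63 to 20.8%) against 8 of 265 older loci (3.02%, interval 1.31 to 5.86%, two-sided Fisher's exact test, adjusted p = 0.00271). Plain bovine names are those of miRBase in the study. The contrast thus depends on what was annotated beforehand and is no count of family copies. The 12 were those of mir-1264, mir-2113, mir-2312, mir-3059, mir-3106, mir-6715, mir-7134, mir-7180 and mir-9851, 1 of mir-7863 and 2 of mir-6526. Apart from mir-7863 and mir-6526, each was the only member of its family in the cow. In the cat such names were common in either class, with 14 of 25 late-numbered loci (56%) and 72 of 240 older loci (30%), a difference that was not tested. The 14 were those of mir-1224, mir-1291, mir-1388, mir-1839, mir-1842, mir-1956, mir-1983, mir-2114, mir-3660, mir-3661, mir-6842, mir-8986 and mir-9182 and 1 of mir-1271. Apart from mir-1271, each was the only member of its family in the cat.

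Few late-numbered families had more than 1 locus. In the cow these were mir-6526 with 5 loci, mir-6536 with 2 and mir-7863 with 2, and in the cat mir-1271 with 2. All 5 mir-6526 loci lay on the plus strand of the bovine X chromosome, and every one had a precursor of 62 nt with a 3p product alone of 22 nt at positions 39 to 60. The first, mir-6526-3 (chrX:28508353-28508414), lay 1778569 nt before mir-6526-1 (chrX:30286984-30287045). Then mir-6526-2 followed after 16164 nt, a further member after another 1877 nt, and the last one (chrX:30319607-30319668) 14396 nt later. Between these last 2 lay bta-Novel331, a locus with no family name, 4552 nt after the first of them. It too had 62 nt, the plus strand and a 3p product alone at positions 39 to 60. Of the 149 bovine loci with a 3p product alone, these 6 were the ones with that length and those positions. The study's alignment kept reads that fit several places in the genome. Whether these loci rest on separate reads was not tested. Sequences of these loci were not analysed here, so whether bta-Novel331 is related to mir-6526 was not tested. The feature was noticed after the values had been seen.

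The mir-6536 family is a pair on opposite strands of the same place. The precursors mir-6536-2 (chr9:39435259-39435330, minus) and mir-6536-1 (chr9:39435263-39435334, plus) overlapped by 68 nt. Each was 72 nt long with products at positions 5 to 26 and 48 to 69, so the pair was alike in every measured span. Whether the pair rests on separate reads was not tested either. The mir-7863 loci lay on chromosome 8 (64 nt) and chromosome 6 (a further member, 46 nt), each with a 5p product alone of 22 nt.

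Late-numbered loci mostly stood alone in the genome. With precursors joined into a cluster at gaps of at most 10 kb, 14 of 96 late-numbered bovine loci (14.6%, interval 8.21 to 23.3%) and 128 of 265 older loci (48.3%, interval 42.1 to 54.5%) were in a cluster, a difference of -33.7 percentage points (two-sided Fisher's exact test, adjusted p = 2.65e-08). In the cat the counts were 3 of 25 (12%, interval 2.55 to 31.2%) and 111 of 240 (46.2%, interval 39.8 to 52.8%), which also passed the exact test (adjusted p = 0.00271). With families from 2000 upwards the feline difference was -28.1 percentage points and no longer passed the exact test (adjusted p = 0.185). The nearest other precursor was more than 100 kb away for 76.0% of late-numbered and 40.8% of older loci of the cow, and for 76% and 44.6% in the cat. The median gap to it was 500619 nt for late-numbered and 12866 nt for older bovine loci. The classifier used the number of hairpins within 1000 nt among its features, and its part in these counts was not tested.

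**Figure D3:**
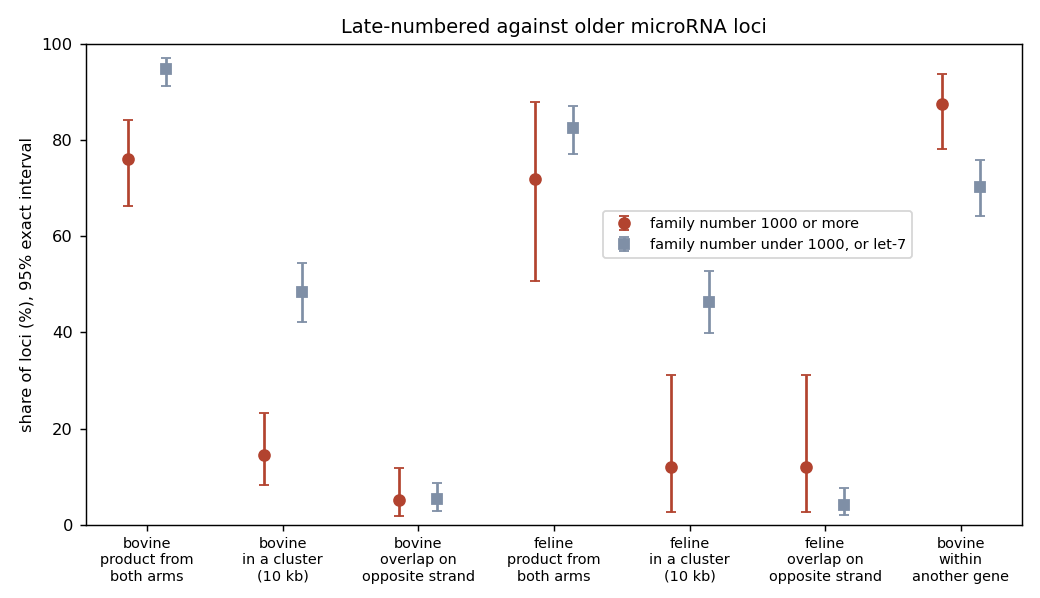
Share of loci, in %, with 95% exact intervals as bars, for late-numbered loci (circles) and older loci (squares) of each species. Late-numbered loci lie lower for clusters in both species (14.6 against 48.3% in the cow) and for products from both arms in the cow, higher for the bovine genes that lie within another gene, and the intervals overlap in the other comparisons.

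Of the 14 clustered bovine members, 5 shared their cluster with no locus but an overlapping one on the opposite strand. These were mir-1388, mir-6518 and mir-6524, which overlapped an antisense-named locus by 62, 55 and 62 nt, and the mir-6536 pair. Overlap with a locus on the opposite strand was found for 5 of 96 late-numbered loci (5.21%, interval 1.71 to 11.7%) and 14 of 265 older loci (5.28%, interval 2.92 to 8.71%), a difference within the counting error (two-sided Fisher's exact test, adjusted p = 1). In the cat, the mir-1388 locus overlapped fca-Novel25 by 67 nt, fca-mir-6715a overlapped its antisense-named locus by 59 nt and fca-mir-3548 overlapped mir-200a by 60 nt. The difference between these 3 of 25 (12%, interval 2.55 to 31.2%) and 10 of 240 older loci (4.17%, interval 2.02 to 7.53%) did not pass the exact test (adjusted p = 0.177). Family mir-1388 thus had an opposite-strand hairpin in both species.

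Several clustered members lay beside a well-known family. The bovine precursor mir-2443 (chr5:117119645-117119712, plus strand, 68 nt) sat between let-7a-3, 185 nt before it, and let-7b, 475 nt after it. Here let-7 is an ancient family that restrains growth and marks differentiated cells. The precursor mir-3431 (X, minus, 70 nt) lay 1854 nt from mir-224 and 2891 nt from mir-452, and mir-6123 (chromosome 13, plus, 78 nt) lay 164 nt before mir-296. All of these neighbours were on the strand of the member, and each gave products from both arms. In the cat, mir-3548 (67 nt, 3p alone) lay opposite mir-200a inside the cluster of mir-200b, mir-200a and mir-429, which act in epithelia.

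**Figure D4:**
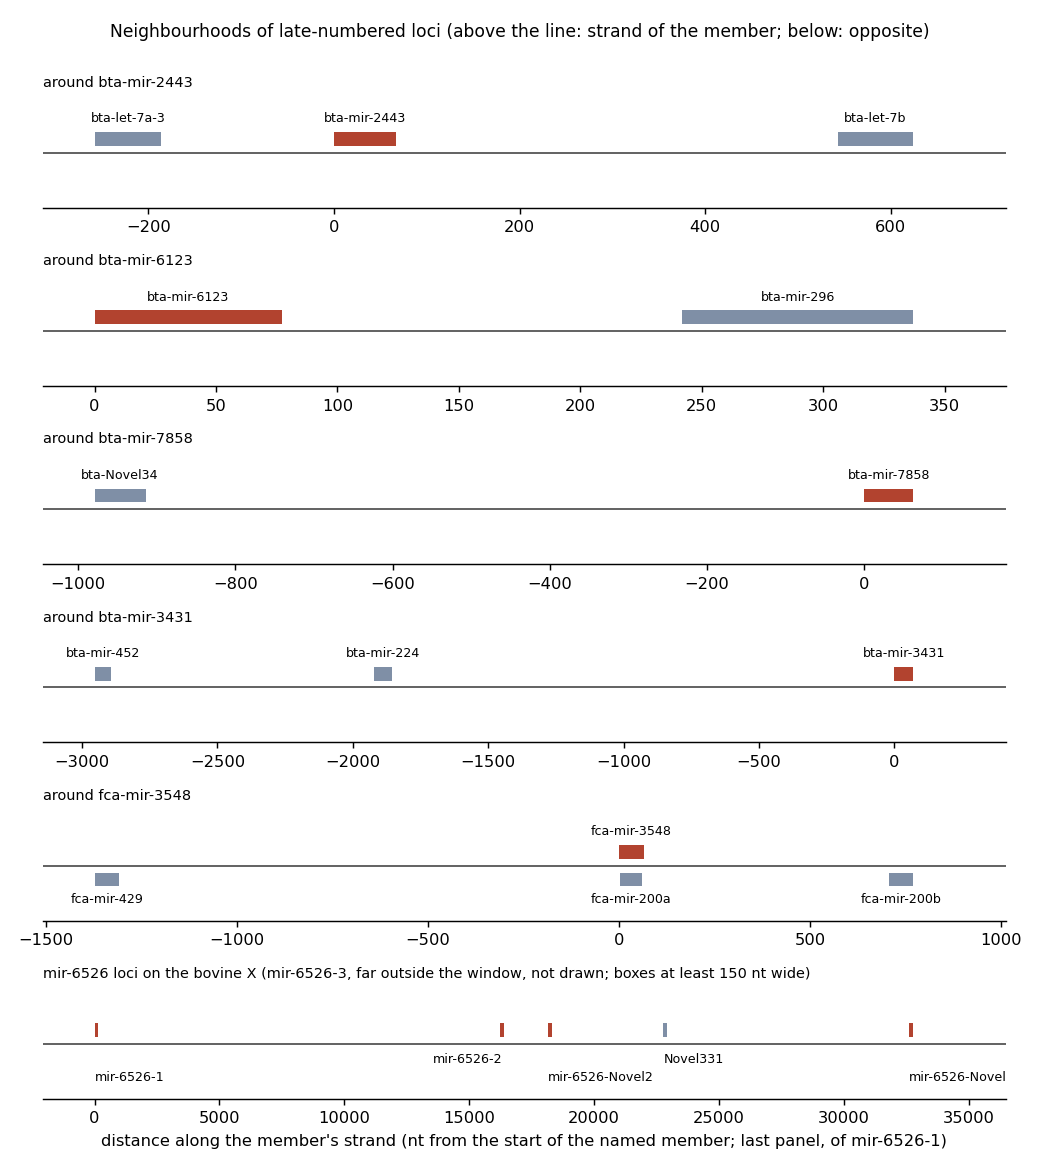
Maps of 5 clustered late-numbered loci and of the mir-6526 group, to scale in nt along the strand of the member, with the member in red and its neighbours in grey. Boxes in the mir-6526 panel are widened to be seen. Boxes below the line are on the opposite strand. In the panel of mir-2443 its hairpin lies between let-7a-3 and let-7b, and fca-mir-3548 is the one drawn opposite its neighbours.

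Other clustered members had less known company. The neighbour of mir-7858 (chromosome 20) was bta-Novel34 at 913 nt, that of mir-1249 was bta-Novel298 at 4982 nt, and that of mir-7857 (chromosome 23) was a locus named for serine tRNA at 9714 nt. With mir-6526-2 and the further members of mir-6526 these complete the 14. Somewhat outside the cluster distance, mir-1306 lay 20833 nt from mir-185, mir-2410 lay 26270 nt from mir-210, mir-3613a lay 53389 nt from mir-16a and 53535 nt from mir-15a, and mir-2376 lay 88759 nt from mir-219-2. On the X chromosome, mir-1264 and mir-1298 lay 80143 nt apart on the plus strand.

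Members were found on 28 bovine sequences. The X chromosome held the most, 12 of 96, of which 5 were mir-6526 and the others mir-1264, mir-1277, mir-1298, mir-1468, mir-2483, mir-3431 and mir-6119. Chromosome 7 held 9 and chromosome 5 held 8. Older families had 39 of 265 loci on X. In the cat, members lay on 14 sequences, with 4 on NC_018733.2 (mir-1296, mir-1307, mir-6715a and mir-9851) as the highest number.

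No difference in precursor length between late-numbered and older families passed the test. The median was 65 nt for both in the cow, with quartiles of 62 and 69 nt for late-numbered loci (two-sided permutation test on the medians, adjusted p = 1). That p-value is fixed once the medians are equal, so it cannot tell whether the lengths differ otherwise. The bovine means were 68.2 nt for late-numbered and 70.9 nt for older loci (two-sided permutation test on the means, adjusted p = 0.140). In the cat the medians were 66 and 65 nt (two-sided permutation test on the medians, adjusted p = 0.863). Mature products of members were 19 to 25 nt long in the cow and 20 to 26 nt in the cat, with a median of 22 nt in each. The median gap between the products was 17 nt for late-numbered and 16 nt for older bovine loci. In 89.0% of the 73 bovine members with both products, at most 5 nt lay outside the products at either end. By the study's methods, the program draws a kind of span from the main product to the stretch that pairs with it. Short ends are therefore partly set by the caller, and its part in these lengths was not tested. The share was 79.7% for older bovine loci. In the cat it was 83.3% for late-numbered and 85.4% for older loci, and these shares were not tested.

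**Figure D5:**
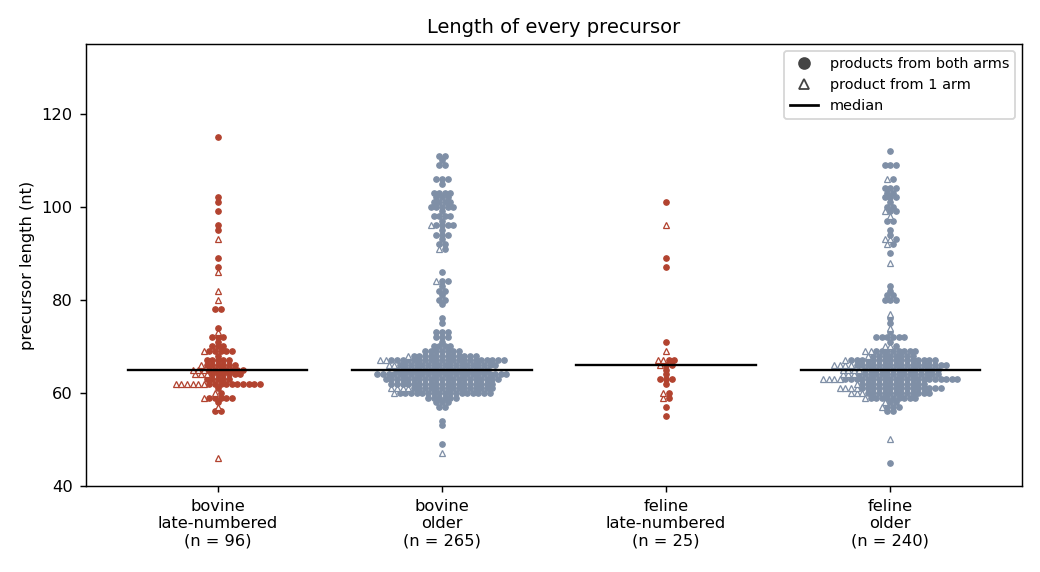
Length of every precursor in nt, with 1 mark per locus, for late-numbered and older loci of each species. Filled circles gave products from both arms, open triangles from 1 arm, and black lines are medians, which lie at 65 or 66 nt in all 4 groups. The 5 open triangles of mir-6526 are among those at 62 nt.

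The longest bovine members got their length in different ways. In mir-2431, the longest with 115 nt, 49 nt preceded the 5p product. In mir-6120 (102 nt), mir-1343 (101 nt), mir-2336 (96 nt) and mir-2408 (95 nt), both ends were extended, by 21 to 23 nt before and 17 to 20 nt after the products, and the gap between the products was 14 to 16 nt. In mir-2410 (99 nt) and mir-1224 (89 nt) the ends were close to the products and the gap between them was 54 and 42 nt. The feline mir-1224 locus had a gap of 44 nt. Other bovine members of 80 nt or more were mir-2316, mir-2432, mir-2350, mir-6521 and mir-2478, and the share of members at or above that length was 12.5%, against 20.8% of older loci. The shortest were the further member of mir-7863 with 46 nt, and mir-3106 and mir-6535 with 56 nt each. In the cat the longest were mir-1343, the further member of mir-1271 and mir-1224, and the shortest mir-2387 with 55 nt, mir-1291 with 57 nt and mir-1956 with 59 nt.

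Most late-numbered bovine microRNA genes lie within another gene. Names were matched to MIR genes of RefSeq (assembly ARS-UCD2.0, which may not be the build of the deposited sets), and neighbours were read within that table alone. Of the 84 members with a plain name, 80 matched 1 placed gene, on the same chromosome in every case. The others were mir-2355, mir-6526-1, mir-6526-2 and mir-6526-3. Within the span of another gene lay 70 of 80 late-numbered MIR genes (87.5%, interval 78.2 to 93.8%) and 180 of 256 older ones (70.3%, interval 64.3 to 75.8%, two-sided Fisher's exact test, adjusted p = 0.0035). Among loci outside clusters the shares were 88.4% of 69 and 76.6% of 128, and the difference of 11.8 percentage points did not pass the exact test (adjusted p = 0.106). Counting protein-coding genes alone, the shares were 66 of 80 (82.5%, interval 72.4 to 90.1%) and 56.6% (exact test, adjusted p = 5.30e-05). The table gives no strand or exon, so whether a MIR gene lies in an intron, or on the strand of the gene around it, is not known from it.

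The surrounding genes are grouped here by what they are known to do. The groups were made after the genes had been seen and were not compared with the genes around older loci. Some act in RNA processing, in RNA binding or in translation. MIR1306 lay within DGCR8, the partner of Drosha in the cleavage of primary microRNA transcripts, and MIR3064 within DDX5, an RNA helicase that associates with that complex. MIR2339 lay within ELAC2, which trims the 3′ end of transfer RNA precursors. MIR7861 lay within CELF2 and MIR2399 within RBPMS, both RNA-binding proteins. MIR6119 lay within RPL39, a ribosomal protein gene, and MIR6524 within PDCD4, an inhibitor of translation initiation.

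Others act on DNA, chromatin or transcription. MIR2454 lay within DNMT1, the maintenance DNA methyltransferase, MIR6520 within EP400, a chromatin remodelling ATPase, and MIR1296 within JMJD1C, a Jumonji-domain protein. MIR2331 lay within RAD51D, which acts in homologous recombination, both MIR6536 genes within REV3L, the catalytic subunit of DNA polymerase zeta, and MIR2446 within the DNA helicase HELQ. Transcriptional regulators surrounded MIR2388 (CUX1), MIR2447 (LIN54), MIR6522 (NPAS3), MIR2410 (DEAF1) and MIR2387 (GTF2IRD1).

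Genes of metabolism and signalling were also present. MIR1343 lay within PDHX, a component of the pyruvate dehydrogenase complex, and MIR2408 within PC, which carboxylates pyruvate. MIR1842 lay within PGP, a phosphatase, MIR1307 within ATP5MK, a subunit of the mitochondrial ATP synthase, MIR7859 within PTGR2, MIR2397 within GLRX3 and MIR2299 within B3GLCT. Protein kinase genes held MIR6529A (GSK3B), MIR2368 (SNRK) and MIR6120 (CSNK1G2), and FASTK held MIR6525. Secreted factors surrounded MIR6518 (ADM, adrenomedullin), MIR2432 (IL23A) and MIR2460 (FGF1 and LOC100847454). Membrane proteins surrounded MIR3431 (GABRE, a GABA-A receptor subunit), MIR7858 (OCLN, occludin of tight junctions), MIR2483 (TENM1), MIR2457 (SLC22A4) and MIR2403 (SLC16A9 and LOC132344128).

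The cytoskeleton and membrane traffic made up another set, with MIR2422 in FLNC, MIR2319A in CKAP5, MIR2350 in BIN1, MIR3432A-2 in HIP1, MIR7860 in COG3 and MIR6535 in TRIP10. A regulator of small GTPases held MIR2308 (ARHGAP39), and an ARF-like GTPase gene held MIR1271 (ARL10). Other surrounding genes were VWA5B2 (MIR1224), KIAA0930 (MIR1249), WDR44 (MIR1277), DNAAF2 (MIR6517), WSCD2 (MIR6521), EPG5 (MIR6523A), TAPBP (MIR2376), SHB (MIR2474), FBXL17 (MIR2465), CPAMD8 (MIR8550), ANKRD6 (MIR7862), NCKAP5L (MIR2425), ASPSCR1 with LOC132343110 (MIR2346) and SCRG1 with a long noncoding RNA (MIR2468). Uncharacterised protein-coding genes held MIR2435, MIR2443 and MIR3613A.

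Noncoding genes alone surrounded MIR2415, MIR2431, MIR6123 and MIR7863, and 10 MIR genes lay within no other gene: MIR1247, MIR1298, MIR1388, MIR2316, MIR2336, MIR2419, MIR2448, MIR2478, MIR3660 and MIR7857-1. Of these, MIR1247 overlapped DIO3OS in part, MIR7857-1 lay 37 nt from a serine tRNA gene and MIR2316 lay 144 nt from SMPD1. MIR1298 lay 14320 nt from HTR2C, and MIR3660 was the most isolated, with 153345 nt to the nearest gene.

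The deposited precursor was usually shorter than the RefSeq gene of the same name. The median difference was -8 nt for late-numbered and -20 nt for older bovine loci. The precursor was longer in 25 of the 80 late-numbered members (31.2%) and in 16.4% of older loci. It was 115 nt against 68 nt for mir-2431, 95 against 61 nt for mir-2408 and 102 against 71 nt for mir-6120. At the other end, mir-1307 had 62 nt against 149 nt. These differences are given as a description, since the deposited spans are those that the program drew.

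The reference miRs that the study chose for quantitative PCR in the cow included 4 of the members, mir-1388, mir-2431, mir-2483 and mir-6520. All 4 gave products from both arms. Their precursors measured 62, 115, 62 and 67 nt. The reference miRs shared no chromosome and had different surroundings, with mir-2483 in TENM1, mir-6520 in EP400, mir-2431 in a noncoding gene and mir-1388 within no other gene but opposite an antisense-named hairpin. Among them mir-1388 was also called in the cat.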

How the data were processed

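Small RNA libraries of cow and cat tissues were prepared with a TruSeq kit. The authors trimmed the reads, aligned them and called precursors and products with miRWoods on the combined libraries of a species. The submitters' processing notes name cutadapt 1.15, Bowtie 1.2.11 and SAMtools. The program makes several candidate spans per product, among them the span from the main product to the stretch that pairs with it. A deposited span can thus be wider or narrower than an annotated one. Precursor lengths and ends describe spans as the program drew them. The values used are the starts and ends that the authors deposited for each locus. Aligner settings bear on which loci could be called. They were not varied here, and their part in the counts was not tested. Read numbers per library were not used here.

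From these, loci were sorted by family number, arm, length, strand and gap. Shares were compared with Fisher's exact test and median lengths by permutation (100000 resamples), all two-sided, with p-values of the 11 tests adjusted by the Benjamini-Hochberg method. An adjusted p below 0.05 counted as passing. The members, lists and tests were chosen with earlier results of these data known, and every member is named, by group. Neighbours, the long hairpins and the locus beside mir-6526 were described after their values had been seen. Python 3.11.15, numpy 2.4.6, scipy 1.17.1 and matplotlib 3.10.9 were used, and the computations were tested on simulated lists. Some of the surrounding genes are not reported here.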

Additional observations from a re-analysis of the deposited data

How the results depend on the processing

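Of 39 alternatives to the 11 tests, 32 stayed on the same side of the threshold with no change of sign. They varied the cluster distance (1, 5 and 50 kb), the strand of neighbours, the names and families counted, the number limit (2000 in place of 1000), the unit and the statistic. For bovine precursor length the main difference was 0 nt, so no change of sign could be counted. The bovine difference of means was -2.75 nt. The lower share of clustered loci in the cat no longer passed with families from 2000 upwards, at a difference of -28.1 percentage points (exact test, adjusted p = 0.185) over 11 late-numbered loci. The share of bovine genes within another gene was 17.2 points higher for late-numbered loci in the main setting. Over loci outside clusters the difference was 11.8 points (exact test, adjusted p = 0.106), with 69 late-numbered and 128 older loci. The cause of these changes was not tested.

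Among the results that passed in no setting, 2 changed sign. The bovine share with an opposite-strand overlap differed by 0.505 points with plain names alone. The feline length difference was -0.965 nt as a difference of means, -2 nt with plain names alone, -0.5 nt over loci with both products and -2 nt with families from 2000 upwards. Leaving out mir-6526 and taking loci outside clusters for the surrounding genes were chosen after seeing the data. Without mir-6526, 80.2% of 91 bovine loci gave both products (exact test, adjusted p = 0.000545).

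No paired analysis was possible because the sets hold no values per sample. For the same reason no replicate was left out. The planned comparison of GC content and its alternatives, and that of surrounding genes on the same strand, were not run, since mature sequences and gene strands were not at hand. Read numbers were not used here, so a missing arm or family was not set against depth.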
